A study of Mus musculus with 52 samples.

Results

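The promoters of 10 immediate early response genes were followed in mouse embryonic stem cells (mESCs) by calibrated ATAC-seq, in which Tn5 transposase inserts sequencing adapters into open chromatin and a fixed number of Drosophila SG4 cells serves as an internal scale. The members were chosen by name as the AP-1 genes Fos, Fosb, Fosl1, Fosl2, Jun, Junb and Jund, the zinc finger gene Egr1, and the response genes Ier2 and Ier3. The choice drew in part on measured values, because Ier3 was lower after treatment in the Kdm2a/b-JmjC line and Fosl2 served the study as an example gene. The deposited tables hold 1 interval of 400 bp for each of the 10 genes among 20633 promoters.

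Immediate early genes respond within minutes to serum, growth factors and stress, without new protein synthesis, and many of their promoters are held open before the stimulus arrives. Serum response factor binds the CArG box, and factors of the CREB and ATF family bind cAMP response elements in several of them. FOS and JUN proteins then pair to form AP-1, which binds further target genes. KDM2A and KDM2B bind non-methylated CpG islands through a ZF-CxxC domain, and their long forms carry a JmjC domain that demethylates lysine 36 of histone H3.

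All 4 mESC lines carried a Cre recombinase fused to an oestrogen receptor domain (CreERT2) at the ROSA26 locus, and all were compared as untreated cells and cells given 800 nM 4-hydroxytamoxifen (labelled tamoxifen) for 96 h. In Kdm2a/b-JmjC fl/fl cells the treatment removes the exons for the JmjC domain of both genes, so that the long forms are lost and the short forms remain. In Kdm2a/b-CXXC fl/fl cells it removes the exon for the ZF-CxxC domain from both genes, in Kdm2a-CXXC fl/fl cells from Kdm2a alone and in Kdm2b-CXXC fl/fl cells from Kdm2b alone. There were 4 ATAC libraries per group in Kdm2a/b-CXXC and 3 per group in the other lines, 26 in all, and another 26 libraries of input genomic DNA are not analysed here. Each genotype was a single line, the floxed cells had no counterpart treated with tamoxifen but lacking loxP sites among these samples, and reads at promoters do not measure the deleted exons.

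Libraries held between 1488370 and 3025358 promoter reads, and the middle promoter of a library had 58 to 108 reads. In Kdm2b-CXXC, untreated replicate 1 and tamoxifen replicate 1 stood above the rest, with medians of 118 and 127 calibrated reads per promoter against 71.5 to 85.2 in the other 4 libraries of the line. Of 10 mESC markers 8 were matched, and their promoters lay at median percentiles of 47.9 to 60.3 among all promoters in the 4 lines, above those of 5 fibroblast markers (12.3 to 18.6), 5 matched markers of other tissues (10.9 to 13.5) and 4 primitive endoderm markers (39 to 44.1). The share of the primitive endoderm markers in the promoter reads lay between 0.00992% and 0.0157% in every library. The share of the mESC markers in treated Kdm2a/b-CXXC cells was 0.0411% to 0.0496%, against 0.0487% to 0.0581% in untreated cells, ranges that overlap. Their median log2 fold change there was -0.20 against 0.087 for all promoters. In Kdm2b-CXXC the shares were 0.0476% to 0.0528% against 0.0528% to 0.0543%, also with overlap, and the medians 0.0048 against 0.099. The shares overlapped too in Kdm2a/b-JmjC (0.0490% to 0.0549% against 0.0472% to 0.0524%) and in Kdm2a-CXXC (0.0632% to 0.0642% against 0.0630% to 0.0709%). None of the mESC markers was called in any line, and the smallest p belonged to Nanog in Kdm2a/b-CXXC (-0.49, limma adjusted p = 0.996) and to Pou5f1 in Kdm2a-CXXC (-0.71, limma adjusted p = 0.581). Their part in the values of the members was not tested. A calibrated read here is a read divided by the spike-in size factor of its library, and accessibility means the number of calibrated reads in the interval.

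The intervals differed in what they cover. Of the 10 members, 8 had a transcription start of the GENCODE basic annotation inside the interval, and Fosl2 and Jund did not. The Fosl2 interval (NM_008037, mm10 chr5:32136272-32136671) was centred on a RefSeq start 671 bp downstream of the GENCODE start and lay wholly within the 5' untranslated part of exon 1 in GENCODE. The Jund interval (NM_001286944, chr8:70697539-70697938) was centred on a RefSeq start 1210 bp upstream of the GENCODE start and touched no GENCODE exon. Over all promoters with sequence, 5.9% of intervals held no GENCODE start, and their median accessibility percentile was 36.7 against 51.2 for the rest. The other intervals spanned an annotated start and part of the first exon of Fos (NM_010234, chr12:85473701-85474100), Fosb (NM_008036, chr7:19309846-19310245), Fosl1 (NM_010235, chr19:5447498-5447897), Jun (NM_010591, chr4:95052023-95052422), Junb (NM_008416, chr8:84978549-84978948), Ier2 (NM_010499, chr8:84662653-84663052) and Ier3 (NM_133662, chr17:35821513-35821912), as did that of Egr1 (NM_007913). No member interval overlapped another promoter of the set, and the nearest one lay 8702 bp or more away.

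The sequence before the start is shown for 4 of the 6 members that matched a cAMP response motif, as 120 bases read 5' to 3' on the strand of the gene from the RefSeq GRCm38.p6 genome, with matches to the searched motifs in capitals. Of these stretches, Fos covers chr12:85473770-85473889 (+), Fosb chr7:19310052-19310171 (-), Junb chr8:84978749-84978868 (-) and Ier2 chr8:84662853-84662972 (-).
Fos: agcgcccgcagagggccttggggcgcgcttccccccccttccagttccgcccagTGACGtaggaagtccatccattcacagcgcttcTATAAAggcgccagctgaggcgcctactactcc
Fosb: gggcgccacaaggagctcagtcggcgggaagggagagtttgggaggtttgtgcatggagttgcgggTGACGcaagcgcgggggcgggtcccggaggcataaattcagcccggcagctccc
Junb: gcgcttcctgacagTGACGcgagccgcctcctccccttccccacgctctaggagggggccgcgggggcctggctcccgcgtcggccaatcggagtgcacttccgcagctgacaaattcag
Ier2: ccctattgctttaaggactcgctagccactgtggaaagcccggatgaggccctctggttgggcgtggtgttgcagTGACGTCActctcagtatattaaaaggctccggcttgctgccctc
The motifs searched on both strands of the 400 bp were the CArG box, TGACGTCA (the full cAMP response element), TGACG (the core of that element, contained in the former), TGAGTCA or TGACTCA (the AP-1 site), GCGTGGGCG (the Egr site), TATAAA and the NF-kappaB site.

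The core TGACG was matched in 6 of the 10 members (Fos, Fosb, Fosl1, Junb, Egr1 and Ier2), against 31% of all 20630 intervals with complete sequence. In Fos it was matched at -129 to -125 and at -66 to -62 on the strand of the gene, and at 185 to 189 on the other strand. Of these, the printed stretch holds only the match at -66 to -62. In Fosb it began 60 bases before the start and in Junb 106 bases before the RefSeq start. Both matches in Fosl1 lay on the other strand, at -121 to -117 and -57 to -53 from the RefSeq start. From the GENCODE start of Fosl1 they lay downstream, at 31 to 35 and 95 to 99. Ier2 alone held the full palindrome TGACGTCA, at -45 to -38, against 2.56% of all intervals. TATAAA was matched in 3 members against 10.4% of intervals, at -33 to -28 in Fos and at -30 to -25 from the GENCODE start in Junb, whereas both matches in Fosb lay downstream of the start on the other strand. The CArG box was matched in Egr1 alone, at -105 to -96 and at -83 to -74, against 1.42% of intervals. The intervals reached 189 bases before the RefSeq start in Fos and 200 in the other members, so sites further upstream were not searched. The GENCODE start of Fosl1 lies 151 bp upstream of its RefSeq start, so fewer bases before it were searched. Neither AP-1 site was matched in any member against 5% of intervals, nor was GCGTGGGCG (1.19%) or the NF-kappaB site (0.179%), and Fosl2, Jun, Jund and Ier3 matched none of the letters searched.

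CpG content separated Jund from the other 9. These 9 had at least 23 CpG dinucleotides in 400 bp and met a GC content of 50% or more with a ratio of observed to expected CpG of 0.6 or more, as did 54.6% of all intervals. Fosl2 had the most, at 45 CpGs and 69.2% GC, and Egr1 had 43. Jund held 8 CpGs, with a ratio of 0.321, against a median of 24 over all intervals. Ier3 held 26 CpGs in the whole interval. Ier3 and Jund are shown as the members with the lowest log2 fold changes in Kdm2a/b-JmjC, by the 120 bases before the GENCODE start of Ier3 (chr17:35821564-35821683, +), with 5 CpGs, and before the RefSeq start of Jund (chr8:70697619-70697738, +), with 3 CpGs, with CpG in capitals. These short stretches differ less than the whole intervals.
Ier3: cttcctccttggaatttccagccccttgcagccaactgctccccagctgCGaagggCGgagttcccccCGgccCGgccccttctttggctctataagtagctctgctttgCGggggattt
Jund: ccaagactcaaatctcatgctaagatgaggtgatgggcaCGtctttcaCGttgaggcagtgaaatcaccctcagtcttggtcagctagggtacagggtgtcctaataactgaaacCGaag

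Accessibility of the 10 promoters in mESCs ranged widely, and the ends of their order were steady. Jun, the partner of Fos in AP-1, was the most accessible of the members in 22 of 26 libraries, and Egr1 took its place in 5, including 1 library in which both had the same value. Fosl2 came ninth and Jund last in 26 of 26 libraries. Among all promoters of a library, Jun lay at a median percentile of 90.6 (lowest 78.4, highest 96.3), Egr1 at 84.7 and Ier2 at 78.8. Fos, Junb, Fosl1 and Ier3 followed at median percentiles of 70.9, 64.3, 60.2 and 59.8, and Fosb at 51.6. Fosl2 lay at 40.2 (29.6 to 44.9) and Jund at 26.3 (13.9 to 33.3), so that both were below the median promoter in every library. Between 5 and 8 of the 10 members exceeded the median promoter, depending on the library.

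**Figure D1:**
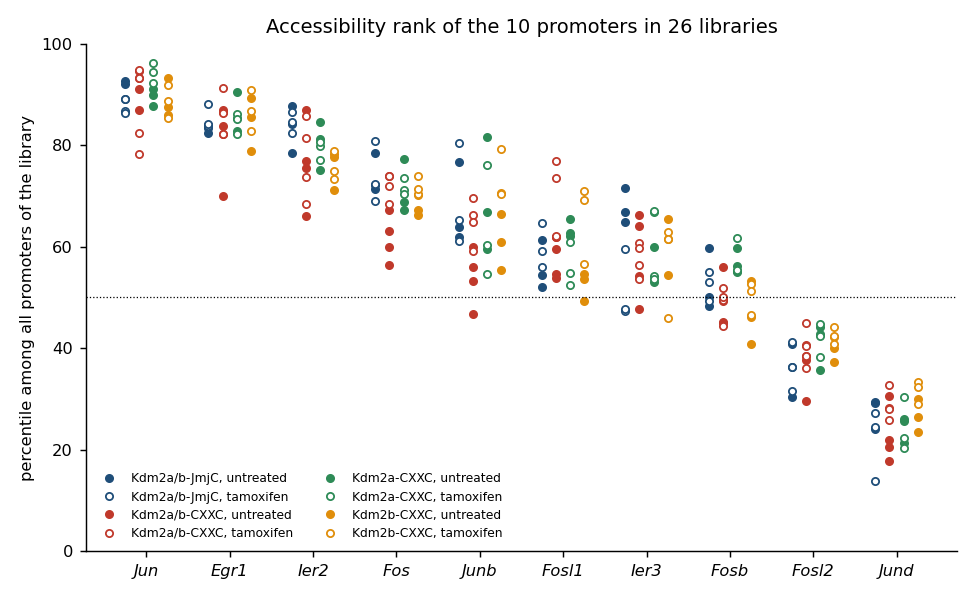
Percentile of each member promoter among all promoters of the same library (y axis, percent) for the 10 genes (x axis), with 1 point per library, filled for untreated and open for tamoxifen, coloured by line. Jun, Egr1 and Ier2 sit at the top, and the points of Jund lie between 13.9 and 33.3.

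In untreated cells the neighbours in this order were better separated in Kdm2a/b-JmjC than elsewhere. Jun had in that line 212 ± 16.9 calibrated reads (SD, n = 3), above the range of Ier2 at 172 ± 15.3, whereas the ranges of Ier2 and Egr1 (169 ± 3.13) overlapped, as did those of Ier3 and Junb and of Fosl1 and Fosb. In the 3 CXXC lines the ranges of every neighbouring pair from Jun down to Fosb overlapped. The step from Fosb to Fosl2 was clear of overlap in all 4 lines, at 77.7 ± 14.4 against 36.7 ± 13.5 in Kdm2a/b-JmjC and 59.2 ± 9.78 against 33.7 ± 9.4 in Kdm2a/b-CXXC (SD, n = 4). Jund had 19.4 ± 4.3, 12.4 ± 5.39, 16.3 ± 1.16 and 20.7 ± 1.32 calibrated reads in untreated cells of Kdm2a/b-JmjC, then Kdm2a/b-CXXC, then Kdm2a-CXXC, then Kdm2b-CXXC. Its range overlapped that of Fosl2 in Kdm2a/b-CXXC and in no other line.

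Set against promoters with a like CpG count, the 2 lowest members parted. Across all intervals, mean reads and CpG count went together (Spearman rho 0.75 over 20630 promoters, which share libraries and base composition). Fosl2 lay at percentile 2.67 of the 750 promoters within 1 CpG of its own count, and Jund at percentile 64.6 of those like it. Jun (86.5 of 990 promoters), Ier2 (76 of 953) and Egr1 (66.7 of 880) were high for their CpG content. The remaining 5, Fos (48.9), Junb (41.9), Ier3 (35.9), Fosb (34) and Fosl1 (33.7), lay below the middle of promoters like them. Whether the distance of the Fosl2 and Jund intervals from the GENCODE start sets their values was not tested.

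**Figure D2:**
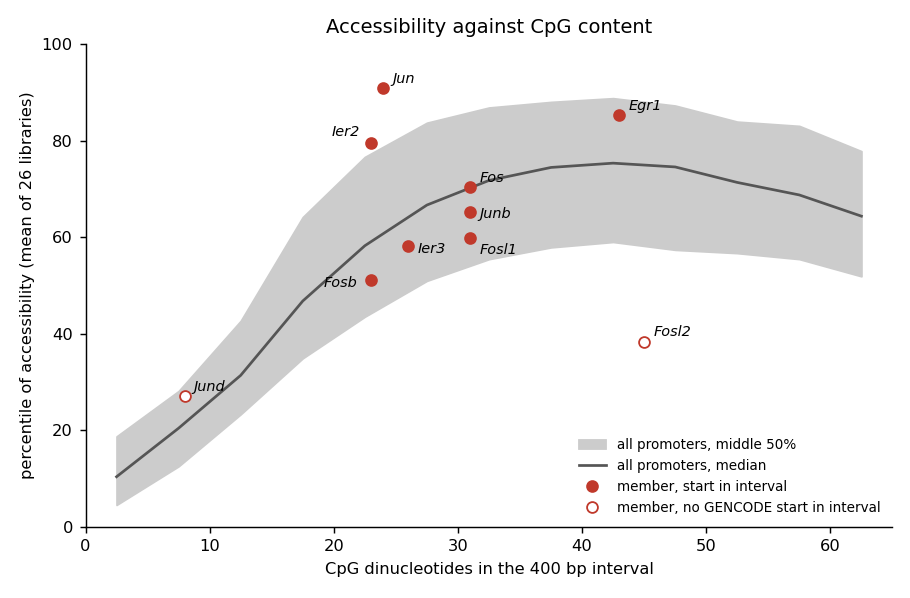
Percentile of mean accessibility over 26 libraries (y axis) against the number of CpG dinucleotides in the interval (x axis). The line and band give the median and the middle 50% of all promoters in bins of 5 CpGs, the last of which holds 60 or more. Points are the 10 members, open where no GENCODE start lies in the interval, and Fosl2 with 45 CpGs lies far under the band.

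The comparison of tamoxifen with untreated cells asked whether removing KDM2 demethylase activity, or KDM2 binding to CpG islands, alters promoter accessibility. Promoters were called at a limma adjusted p of 0.05 and a change of 1.4-fold. In Kdm2a/b-JmjC the members were chosen with the lower value of Ier3 known, so that its call, 1 of 10 members beside 0.0757% of all 17174 promoters tested (13 promoters, all lower, and 0.0% higher), is part of the choice and not a result. Values of members in this line are a description. Ier3, which codes for a stress-inducible regulator of cell survival, had 125, 119 and 108 calibrated reads in untreated cells and 86.5, 51.7 and 54.2 after tamoxifen. All 3 treated libraries were below all 3 untreated ones. The log2 fold change was -0.90 (SE 0.19) on the log2(calibrated reads + 1) scale, and -0.69 (SE 0.18) when libraries were scaled by TMM, which sets the typical promoter to no change. The value that entered the choice also depended on the processing, since Ier3 was past the thresholds neither with TMM scaling nor without untreated replicate 1 or 2 or tamoxifen replicate 2 or 3, where the log2 fold change lay between -0.89 and -0.77.

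Of the remaining members in Kdm2a/b-JmjC, Jund and Jun lay below the median of all promoters by more than the others, at percentiles 4.27 and 20.6 of all log2 fold changes. Every member had a log2 fold change below 0, as did all but 16.6% of promoters. The median of the members was -0.19 and that of all promoters tested -0.21, and with TMM scaling the median of the members was 0.016. On that scale 6 of 10 members had values above 0, beside 49.4% of promoters, and 0.0% of promoters passed the thresholds. Jun had 218, 226 and 193 calibrated reads in untreated and 184, 151 and 157 in treated cells, without overlap of the groups, with a log2 fold change of -0.37 (SE 0.14). Ier3 and Jun made 2 of 10 members whose groups did not overlap, beside 23.2% of all promoters with every treated library below every untreated one. No member had every treated library above, beside 0.908% of promoters. Jund had 22.6, 14.5 and 21.1 against 8.54, 12.5 and 16.4 calibrated reads, which is -0.62 ± 0.41 (SE) on the log2 scale, from few reads, and the groups overlapped. The log2 fold changes of Fos, Fosb, Fosl1, Fosl2, Junb, Egr1 and Ier2 lay between -0.24 and -0.06. Ier3 and Jund were both past 1.4-fold (0.49 on the log2 scale), Jund did not pass the adjusted threshold, and Jun at -0.37 was the nearest member under 1.4-fold.

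**Figure D3:**
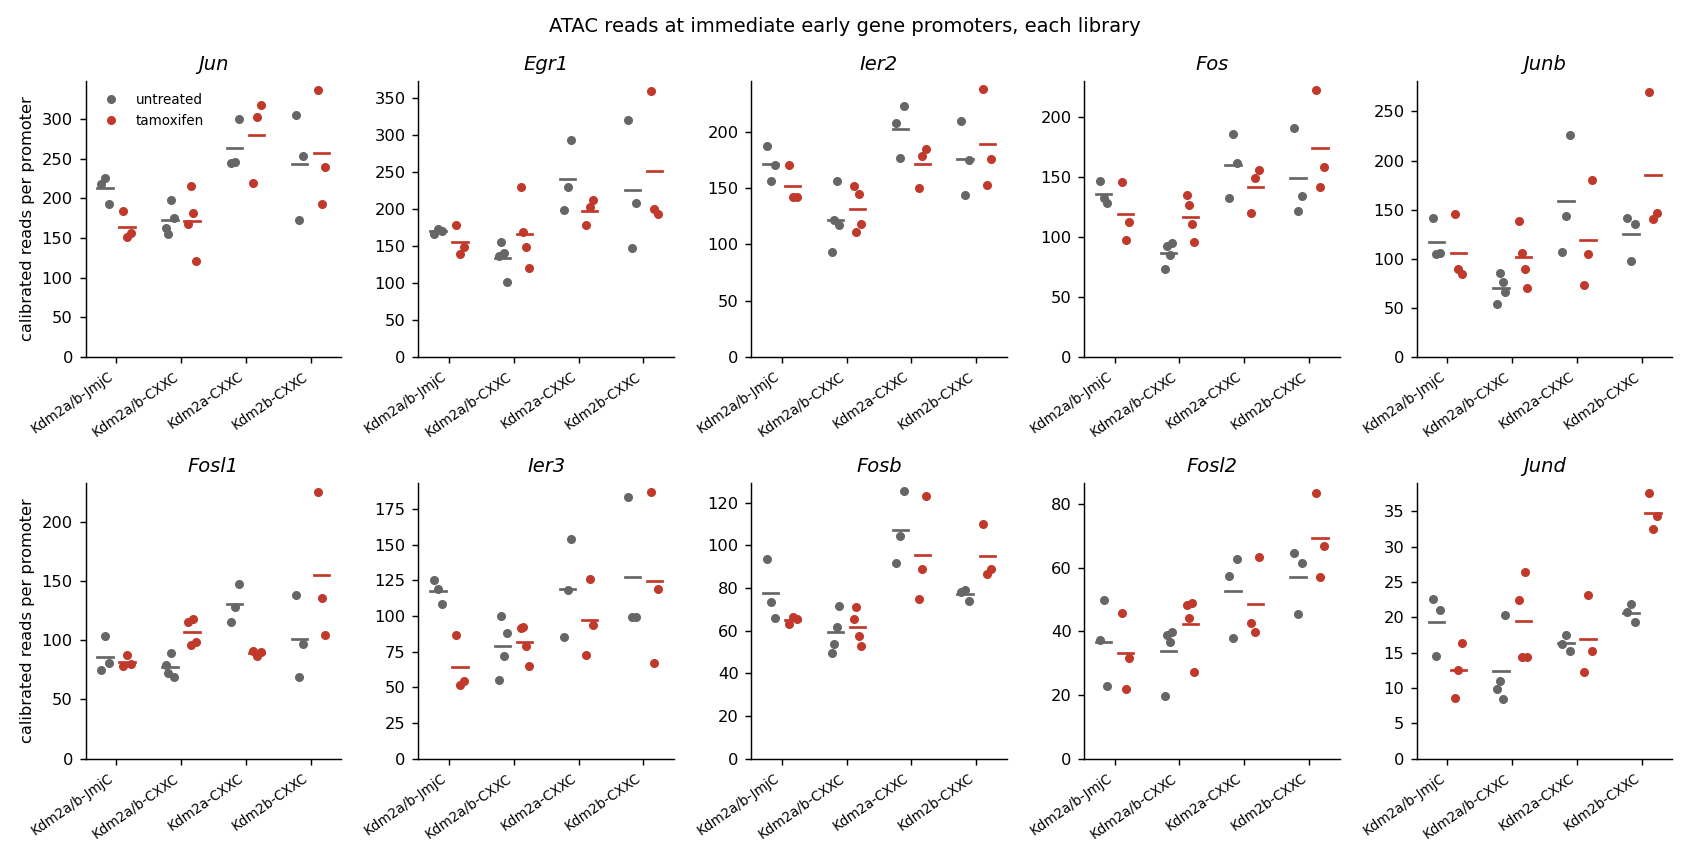
Calibrated reads in each library (points) and group means (bars) for the 10 promoters, by line (x axis) and treatment, with separate y axes from 0. In Kdm2a/b-JmjC the 3 treated libraries of Ier3, between 51.7 and 86.5, lie under the untreated ones, between 108 and 125.

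In Kdm2a/b-CXXC, where both proteins lose CpG island binding, no member passed the thresholds by limma, and 0.0% of 16413 promoters did. Unadjusted p-values were under 0.05 for 3 of 10 members, Fos, Fosl1 and Junb, all with more reads after treatment, beside 4.65% of all promoters (764 promoters). edgeR and DESeq2 on the recovered reads also called no promoter. Fos had 73.1, 92.7, 85.3 and 94.9 calibrated reads in untreated cells and 135, 126, 111 and 95.5 after tamoxifen, which is 0.43 ± 0.20 (SE) on the log2 scale with a limma adjusted p of 0.996. The lowest treated library of Fos stood just above the highest untreated one. Fosl1, an AP-1 member induced later than Fos, had 79, 72.7, 89 and 68.7 against 116, 95.9, 118 and 98.7, which is 0.47 ± 0.20 (SE) on the log2 scale with a limma adjusted p of 0.996, again with no overlap. These 2 of 10 compare with 1.8% of all promoters for which every treated library exceeded every untreated one, and no member lay wholly below, beside 0.597%.

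Junb, which pairs with FOS proteins and often restrains JUN, overlapped between its groups in Kdm2a/b-CXXC. It had 53.3, 85.7, 75.9 and 65.8 calibrated reads in untreated cells and 139, 106, 90 and 70.6 after tamoxifen, which is 0.50 ± 0.21 (SE) on the log2 scale with a limma adjusted p of 0.996. The lowest treated library was below 2 of the 4 untreated ones. Jund had the highest fold change of the members at 0.64 (95% interval -0.09 to 1.37), from 9.88, 11, 8.43 and 20.3 against 22.5, 14.4, 26.4 and 14.4 calibrated reads. Jun was at -0.04 (95% interval -0.39 to 0.31), Ier3 at 0.08 (-0.33 to 0.48) and Fosb at 0.07 (-0.37 to 0.50). Fosl2 (0.33), Egr1 (0.29) and Ier2 (0.12) also had 95% intervals that included 0. In all, 9 of 10 members were above 0, beside 68% of promoters, and the median of the members was 0.31 against 0.087 for all promoters. The median of the members was 0.19 without tamoxifen replicate 1, 0.20 without untreated replicate 1 and 0.47 without tamoxifen replicate 4. With TMM scaling 7 of 10 members were above 0, beside 50.3%, 3 of 10 had an unadjusted p under 0.05, beside 9.72%, and none passed the thresholds, beside 0.104%.

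In Kdm2a-CXXC no member and 0.0% of 17727 promoters passed by limma, and edgeR and DESeq2 called none either. Simulated data for this line gave back 53.7% of planted log2 changes of 1, so the lack of calls does not exclude changes of that size. Fosl1 and Junb had unadjusted p-values under 0.05, both with fewer reads after treatment, that is 2 of 10 members beside 8.39% of promoters (1488 promoters). Fosl1 had 116, 129 and 148 calibrated reads in untreated cells against 90.7, 87.1 and 90.1 after tamoxifen, which is -0.54 ± 0.21 (SE) on the log2 scale with a limma adjusted p of 0.581. It was the only member without overlap of the groups, and 13.4% of promoters had every treated library below every untreated one. None lay wholly above, beside 1.12%. Junb had 107, 144 and 226 against 73.2, 104 and 180 calibrated reads, which is -0.44 ± 0.20 (SE) on the log2 scale with a limma adjusted p of 0.581. Its libraries spread widely and overlapped between the groups, and without tamoxifen replicate 3, the highest treated library, the value was -0.79 and passed both thresholds (limma adjusted p = 0.0495). Of the 10 members 2, Jun (0.08) and Jund (0.0019), were above 0, beside 18.8% of promoters. With the replicate number as a block in the fit, 3 of 10 members had a limma unadjusted p under 0.05, beside 3895 of 17727 promoters. No member then passed the thresholds, beside 188 of all promoters, of which 186 were lower after treatment. With TMM scaling 4 of 10 members were above 0, beside 49.3% of promoters, 2 of 10 had an unadjusted p under 0.05, beside 6.18%, and 0.0% of promoters passed. Jun was then at 0.26 (SE 0.10, limma adjusted p = 0.763), from 245, 245 and 300 against 220, 303 and 317 calibrated reads that overlap between the groups.

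In Kdm2b-CXXC no member and 0.0% of 17930 promoters passed by limma, nor by edgeR or DESeq2, and no member had an unadjusted p under 0.05, beside 0.669% of promoters (120 promoters). The 2 libraries of high totals in this line both carry replicate number 1. The SE of the members lay between 0.36 and 0.44 on the calibrated scale and between 0.11 and 0.31 with TMM scaling. With the replicate number as a block in the fit, 3 of 10 members had a limma unadjusted p under 0.05, beside 1785 of 17930 promoters. No member then passed the thresholds, beside 5 of all promoters. The part of the 2 libraries in the errors was not tested. Only 24.2% of planted log2 changes of 1 were recovered from simulated data for this line. The lack of calls by the main fit therefore does not exclude changes of that size. Jund, a more constantly expressed relative of Jun, had 20.7, 22 and 19.3 calibrated reads in untreated cells and 37.6, 32.5 and 34.3 after tamoxifen, which is 0.72 ± 0.44 (SE) on the log2 scale with a limma adjusted p of 1. All treated libraries were above all untreated ones, as they were for Fosb (78.4, 79.3 and 73.7 against 110, 86.8 and 89), whose log2 fold change was 0.29 (SE 0.36). These 2 of 10 members stand beside 2.13% of promoters, and no member lay wholly below, beside 0.446%.

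Fosl1 and Junb had the next largest values in Kdm2b-CXXC, with groups that overlapped. Fosl1 had 138, 69.4 and 96.6 against 226, 136 and 104 calibrated reads, which is 0.59 ± 0.37 (SE) on the log2 scale with a limma adjusted p of 1, and Junb was at 0.52 (SE 0.37). With TMM scaling Fosl1 was at 0.49 (SE 0.15, limma adjusted p = 0.309), Junb at 0.42 (SE 0.13, limma adjusted p = 0.388) and Jund at 0.63 (SE 0.31, limma adjusted p = 0.632), so that 3 of 10 had an unadjusted p under 0.05, beside 7.74% of promoters. On that scale 7 of 10 were above 0, beside 50.2%, and none passed the thresholds, beside 0.00558%. Ier3 had 183, 99.1 and 99.2 against 187, 67 and 119 calibrated reads and a log2 fold change of -0.09 (95% interval -0.81 to 0.63). It was the only member below 0, and 71.1% of all promoters were above 0. The median of the members was 0.25 and that of all promoters 0.099. Without tamoxifen replicate 1 these were 0.083 and -0.11, without untreated replicate 2 they were 0.11 and -0.070, and without untreated replicate 1 they were 0.39 and 0.30.

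**Figure D4:**
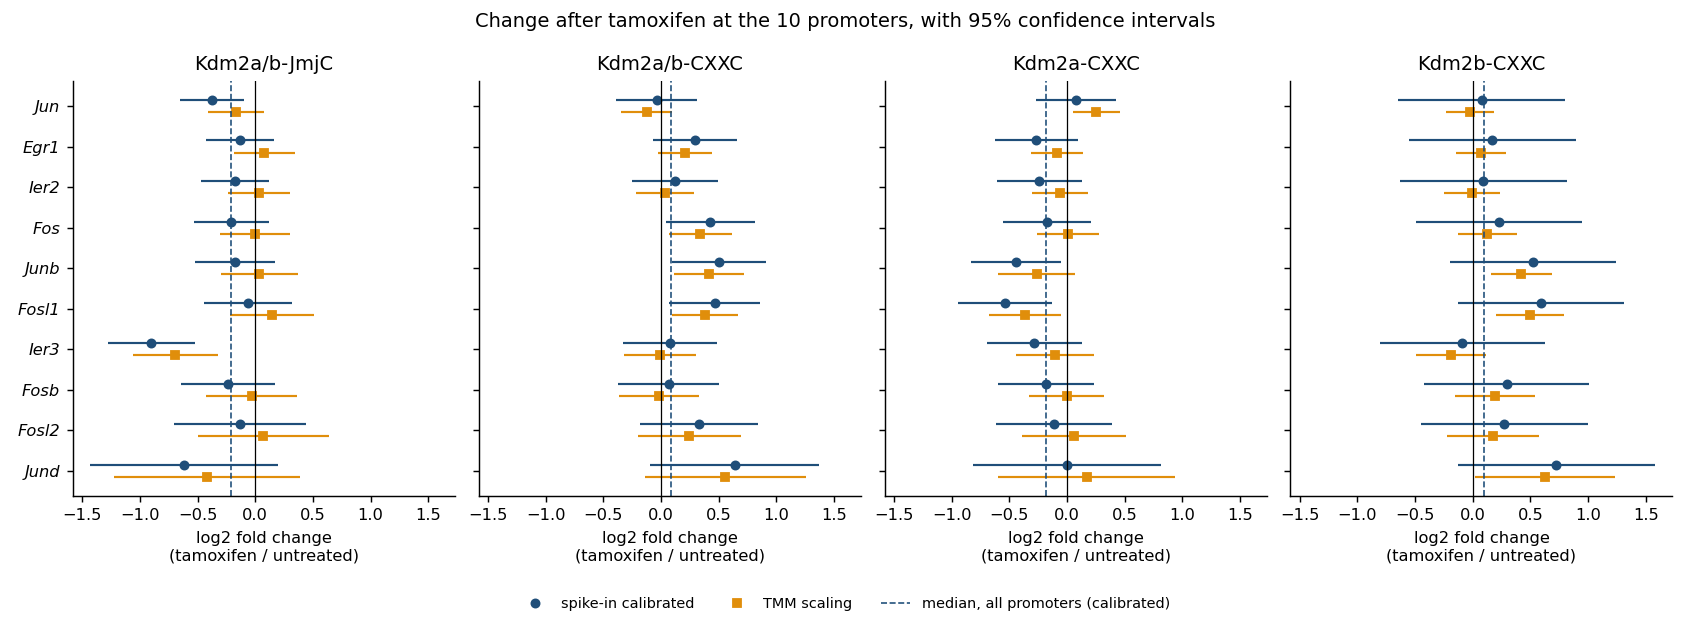
Log2 fold change of tamoxifen over untreated cells (x axis) for each member (y axis) in the 4 lines, with 95% confidence intervals, on the spike-in scale (circles) and with TMM scaling (squares). The dashed line marks the median of all promoters, and the intervals in Kdm2a/b-JmjC are no test, since the members were chosen on that line. Ier3 in Kdm2a/b-JmjC, at -0.90 and -0.69, lies furthest from 0, and most other intervals cross 0.

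Fos, Fosb, Fosl1, Fosl2, Junb, Egr1 and Ier2 had the same signs over the lines as the medians of all promoters (-0.21, 0.087, -0.18 and 0.099). Each line was fitted alone, and differences between lines in log2 fold change were not tested. Log2 fold changes follow the order Kdm2a/b-JmjC, Kdm2a/b-CXXC, Kdm2a-CXXC, Kdm2b-CXXC. Ier3 was at -0.90, 0.08, -0.28 and -0.09. Fosl1 was at -0.06, 0.47, -0.54 and 0.59, and Junb at -0.17, 0.50, -0.44 and 0.52. The paper shows Fosl2 as an example of a larger rise in nuclear RNA after tamoxifen in Kdm2a/b-CXXC cells, which is not a measure of accessibility. In accessibility Fosl2 was at -0.13 (SE 0.29), 0.33 (SE 0.26), -0.11 (SE 0.26) and 0.27 (SE 0.37), with no limma adjusted p below 0.866 in the last 3 lines. The libraries of Fosl2 ranged from 22.9 to 49.9 calibrated reads in untreated and from 21.9 to 45.9 in treated Kdm2a/b-JmjC cells, and from 19.8 to 39.7 and from 27.3 to 48.9 in Kdm2a/b-CXXC. Egr1 was at -0.13, 0.29, -0.27 and 0.17 and Ier2 at -0.18, 0.12, -0.24 and 0.09.

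Levels between the lines were compared on TMM-scaled reads over all 26 libraries, with untreated and treated libraries of a line averaged together, as a description. The largest departures of a line from the other 3 were at Jund, 0.38 higher on the log2 scale in Kdm2b-CXXC and -0.32 in Kdm2a-CXXC, and at Fosl2, -0.31 in Kdm2a/b-JmjC, where the SD between libraries was 0.43, 0.29 and 0.41. On chromosome 8, which carries Junb, Jund and Ier2, the median promoter was 0.33 higher in Kdm2a/b-JmjC than in the other lines, and Ier2, Junb and Jund were at 0.21, 0.12 and -0.08 there. The part of this chromosome-wide difference in the values of the 3 genes was not tested.

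Over the 26 libraries, with the mean of each line removed, the members correlated weakly. Among 36 pairs of the 9 members with a mean of at least 20 reads, the median Pearson r of TMM-scaled values was 0.12, and 26 pairs were above 0. The mean r was 0.10 over these pairs and 0.0049 over all pairs of 14993 promoters. The highest was 0.47 for Fos and Junb, and the lowest -0.60 for Fosb and Egr1. The promoters most like Ier3 among 14993 were those of Prickle2 (r = 0.73) and Stox1 (r = 0.70), and those most like Fosl2 were Thoc2 (r = 0.69) and Ntsr1 (r = 0.68). Picking the highest of so many correlations over 26 libraries gives high values even without a relation, and none was tested. The profile of Ier3 also holds the lower treated values in Kdm2a/b-JmjC that entered the choice. All points of these correlations share libraries and include both treatments.

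Of a list of 30 other immediate early genes, with 31 promoters tested in every line, none passed the thresholds in any line by limma. Unadjusted p-values under 0.05 were found for 5, 2, 4 and 0 of the 31 promoters in the same order of lines, beside 20.6%, 4.65%, 8.39% and 0.669% of all promoters, and the medians of the list were -0.18, 0.097, -0.17 and 0.16. The smallest p per line belonged to Ier5, a stress-induced relative of Ier2, in Kdm2a/b-JmjC (259 ± 19 against 176 ± 6.36 calibrated reads, SD, n = 3 and n = 3, log2 fold change -0.55, limma adjusted p = 0.0504). In the other lines it belonged to Ptgs2, which codes for an inducible cyclooxygenase, in Kdm2a/b-CXXC (0.65, limma adjusted p = 0.991), to Zfp36, whose product destabilises AU-rich mRNAs, in Kdm2a-CXXC (-0.49, limma adjusted p = 0.581), and to Atf3, a stress-induced bZIP factor, in Kdm2b-CXXC (0.37, limma adjusted p = 1).

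Of 24 genes for factors that act on immediate early promoters, upstream kinases and AP-1 partners, 26 of 30 promoters were tested in 3 lines and 27 in Kdm2b-CXXC, and none passed the thresholds by limma. Unadjusted p-values under 0.05 were found for 8, 3, 4 and 1 of them in the same order of lines, beside 20.6%, 4.65%, 8.39% and 0.669% of all promoters, and the medians of the list were -0.22, 0.14, -0.19 and 0.16. The smallest p belonged to Mafg (-0.39, limma adjusted p = 0.101), a small Maf protein that can pair with FOS, in Kdm2a/b-JmjC and to Atf4 (0.35, limma adjusted p = 0.996) in Kdm2a/b-CXXC. In Kdm2a-CXXC it belonged to Jdp2 (-0.60, limma adjusted p = 0.581), a repressor that pairs with JUN, and in Kdm2b-CXXC to Batf2 (-1.11, limma adjusted p = 1), with 22.5 ± 15.6 calibrated reads in untreated and 8.46 ± 0.366 in treated cells (SD, n = 3 and n = 3).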

How the data were processed

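ATAC-seq signal was measured in 26 libraries of 4 mESC lines. Per the methods of the study, the authors aligned reads to mm10 and dm6 with Bowtie 2, removed multi-mapping, duplicate, mitochondrial and blacklisted reads, and counted reads at the promoters of a non-redundant gene set. The deposited intervals span 400 bp each, and those of the members lie around a RefSeq start. The deposited signal values are those read counts divided by DESeq2 size factors from the Drosophila spike-in, corrected by input DNA, 1 table per line. Division by the value of 1 read in each library, estimated from its lowest values, gave back whole reads for 100.0% of values (tolerance 0.01), so size factors between 0.718 and 1.41 could be recovered. The tables also hold the authors' own comparison (mean, fold change, error and p-values), which was not used, and 0 sample columns were left out. Gene symbols were matched for 99.1% of promoters.

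log2(calibrated reads + 1) was tested in each line with limma 3.58.1 (trend) after edgeR's filterByExpr on recovered reads, with Benjamini-Hochberg adjustment over all promoters tested. Calls needed an adjusted p under 0.05 and a change over 1.4-fold. R 4.3.3, edgeR 4.0.16 and DESeq2 1.42.0 served the alternatives, and the fit was tested on simulated data. Of planted log2 changes of 1, it recovered 24.2% for Kdm2b-CXXC and 53.7% for Kdm2a-CXXC. The shares were higher for the 2 double lines, at 82.8% (CXXC) and 80.4% (JmjC). Recovery of planted log2 changes of 2 was 94.8% to 100%, with 6 to 14 false calls per line. Most changes of the smaller size would thus be missed in Kdm2b-CXXC, and many in Kdm2a-CXXC. The members, the gene lists and the rule for naming the list gene with the smallest p per line were chosen with earlier results of these data known. The methods of the study call the replicates biological, and p-values measure the spread between them within a single line. Promoters matched by sequence came from RefSeq GRCm38.p6, and 7 of 10 members were in its promoter table. PCR reads carry no molecular identifiers.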

Additional observations from a re-analysis of the deposited data

Results flagged for a closer look

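In untreated Kdm2a/b-CXXC cells, the Fosl2 promoter had 1 library (replicate 1, 19.8 calibrated reads) far below the other 3 (36.6 to 39.7). The gap to the nearest library took 0.842 of the whole range of the group, above the 95% critical value of Dixon for 4 samples. Of 20 such groups tested, chance alone flags about 1 in 20.

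Fosl1 moved in opposite directions in 2 lines. Every treated library lay above every untreated one in Kdm2a/b-CXXC (log2 fold change 0.47) and below in Kdm2a-CXXC (-0.54). The difference between the lines was not tested, and neither value passed the adjusted threshold.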

How the results depend on the processing

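Of 650 fold changes of members under the alternatives 590 kept their sign and 60 changed it. Ier3 in Kdm2a/b-JmjC stayed below 0 under all of them, between -1.13 and -0.77 when 1 library was left out. The number of members called in Kdm2a/b-JmjC went from 1 to 0 with TMM, median-of-ratios and total-read scaling, and the median of the members from -0.19 to 0.016, 0.019 and 0.021. It was also 0 by DESeq2 without independent filtering, an alternative chosen after seeing the data because DESeq2 gave no adjusted p for any member. Leaving out 1 library gave medians of the members of -0.38 (without tamoxifen replicate 1) to -0.12 (tamoxifen replicate 2) in Kdm2a/b-JmjC, where it was -0.30 without untreated replicate 3. It gave medians of 0.19 to 0.47 in Kdm2a/b-CXXC, -0.31 to -0.073 (tamoxifen replicate 1) in Kdm2a-CXXC, where it was -0.095 without untreated replicate 3, and 0.083 to 0.39 in Kdm2b-CXXC. It also gave 0 to 1 member called in Kdm2a/b-JmjC, and 0 to 1 member called in Kdm2a-CXXC (Junb, without tamoxifen replicate 3). Over all promoters, Kdm2a/b-JmjC had 13 calls, 0 with each of the 3 scalings, 114 by edgeR, 12 by DESeq2, 1 by DESeq2 without independent filtering, 71 with a pseudocount of 5 and 0 to 607 without 1 library, the last without tamoxifen replicate 1. In Kdm2a/b-CXXC there were 0 calls, 17, 17 and 18 with the 3 scalings and 0 to 8 without 1 library. Kdm2a-CXXC had 0 calls, and 0 to 43 without 1 library, the last without tamoxifen replicate 3. Kdm2b-CXXC had 0 calls, and 1 with each of the 3 scalings.

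Across promoters, the deviations of same-numbered libraries correlated between -0.0090 and 0.073, and the main fit did not pair them. This correlation cannot see a shift shared by all promoters of a library, so it does not settle the pairing. Calibrated totals had the same order of replicate numbers in both treatments of Kdm2a-CXXC and of Kdm2b-CXXC, and not in the other lines. With the replicate block, calls over all promoters were 62, 0, 188 and 5 and members called stayed at 1, 0, 0 and 0. Limma unadjusted p-values under 0.05 were then found for 3895 of 17727 promoters in Kdm2a-CXXC (1488 without the block). In Kdm2b-CXXC they were found for 1785 of 17930 (120 without it). Members with such a p were 3 of 10 in each of these lines, against 2 and 0 without the block. Kdm2a/b-CXXC had 733 of 16413 promoters (764 without it) and 3 of 10 members either way. In Kdm2a/b-JmjC each library correlated best with its own number, a hint from the data, not the design.

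With TMM, median-of-ratios and total-read scaling in that order, values in Kdm2a/b-JmjC turned above 0 for Fos (0.00055, 0.0026, 0.0049), Fosl1 (0.15 each), Fosl2 (0.069, 0.071, 0.073), Junb (0.035, 0.037, 0.040), Egr1 (0.078, 0.080, 0.083) and Ier2 (0.032, 0.034, 0.037). They also changed sign for Fosb (-0.018, -0.018, -0.025) and Ier3 (-0.0095, -0.0090, -0.016) in Kdm2a/b-CXXC, for Fos (0.0076, 0.0094, 0.015) and Fosl2 (0.061, 0.063, 0.068) in Kdm2a-CXXC, where Fosb did so with total-read scaling (0.0034), and for Jun (-0.023, -0.025, -0.020) and Ier2 (-0.0072, -0.0087, -0.0037) in Kdm2b-CXXC. When 1 library was left out, ranges in Kdm2a/b-JmjC that crossed 0 were -0.16 to 0.075 for Fosl1 and -0.43 to 0.12 for Fosl2. In Kdm2a/b-CXXC they were -0.014 to 0.16 for Fosb, -0.16 to 0.12 for Jun, -0.0031 to 0.25 for Ier2 and -0.080 to 0.20 for Ier3. In Kdm2a-CXXC they were -0.33 to 0.025 for Fosl2, -0.022 to 0.24 for Jun and -0.24 to 0.20 for Jund. In Kdm2b-CXXC they were -0.15 to 0.26 for Jun, -0.12 to 0.46 for Egr1, -0.086 to 0.23 for Ier2 and -0.44 to 0.29 for Ier3. The cause was not tested. Jund rests on 8 to 42 reads per library, which limits its precision.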
